A study of Drosophila melanogaster with 2 samples.

Results

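The Hox genes of Drosophila are the 8 homeobox genes lab (labial), pb (proboscipedia), Dfd (Deformed), Scr (Sex combs reduced), Antp (Antennapedia), Ubx (Ultrabithorax), abd-A (abdominal-A) and Abd-B (Abdominal-B), here out of 13968 annotated protein-coding genes. They were chosen by name, and stand in 2 clusters on chromosome arm 3R, the Antennapedia complex (ANT-C, lab to Antp) and the bithorax complex (BX-C, Ubx to Abd-B). Binding of hng2 (CG8359), a chromatin protein with MADF and BESS domains, was read from peak lists of chromatin immunoprecipitation and sequencing (ChIP-seq). The embryos were 0 to 14 h old and of both sexes, and came from a transgenic line that stably expresses CG8359 with GFP at its C terminus. Biological replicates 2 and 3 make up the only group, so no conditions could be compared. The sample description names an anti-GFP antibody and the antibody entry names CG8359. A control library stands behind the authors' peak calls but was not analysed here. Whole embryos mix all tissues and segments, so binding could not be assigned to the cells in which a given Hox gene is on or off. The authors' optimal list, made from both replicates, held 3170 peaks. Each was placed by its summit, the base of highest enrichment, on genome build dm6. Of these summits 21 lay in the complexes, counted from 2 kb outside the first gene of each to 2 kb outside its last, and 13 of the 21 lay in a Hox gene or within 2 kb of one.

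Hox genes encode homeodomain transcription factors that give the segments of the body their identity. Their order on the chromosome follows the order of the body regions they pattern, from the head (lab, pb, Dfd) through the thorax (Scr, Antp, Ubx) to the abdomen (abd-A, Abd-B). Their control regions are long, lie in introns and between the genes, and include enhancers, insulators, transcribed non-coding regions and elements through which Polycomb group proteins keep the genes silent and Trithorax group proteins keep them active.

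The sequences under the 6 summits of highest signal in the complexes are printed here because these 6 were found among the strongest peaks of both replicates. Each is the 150 bp window around the summit on the plus strand of dm6, from the RefSeq copy of the genome. Capitals mark matches on either strand to any of 6 short motifs: GAGAG (GAGA factor), GCCAT (the core of the Pho site), AGNNGGCGC (the core of a CTCF site), TGATNNAT (a joint site of Exd and Hox proteins), CAGCTG (an E-box) and TATCGATA (the DNA replication-related element, DRE).
Antp intron, strongest summit, chr3R:6973515-6973664: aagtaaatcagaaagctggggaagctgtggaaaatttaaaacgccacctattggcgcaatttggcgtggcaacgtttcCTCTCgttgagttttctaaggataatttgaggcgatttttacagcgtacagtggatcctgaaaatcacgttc
between Ubx and abd-A, chr3R:16798787-16798936: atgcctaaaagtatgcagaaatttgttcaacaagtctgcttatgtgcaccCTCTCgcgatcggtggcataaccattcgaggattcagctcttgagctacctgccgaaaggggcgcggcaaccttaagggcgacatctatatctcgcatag
Ama intron, between pb and Dfd, chr3R:6763048-6763197: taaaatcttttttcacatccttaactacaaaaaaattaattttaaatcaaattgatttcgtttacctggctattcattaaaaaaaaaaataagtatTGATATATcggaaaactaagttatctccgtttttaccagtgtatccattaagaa
Abd-B intron, chr3R:16958113-16958262: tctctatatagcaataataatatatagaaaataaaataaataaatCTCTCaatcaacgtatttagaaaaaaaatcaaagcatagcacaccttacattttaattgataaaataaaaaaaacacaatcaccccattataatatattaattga
Antp intron, further downstream, chr3R:6914460-6914609: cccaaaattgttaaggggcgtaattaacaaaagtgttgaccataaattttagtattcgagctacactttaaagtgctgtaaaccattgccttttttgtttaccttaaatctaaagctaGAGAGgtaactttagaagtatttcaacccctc
lab intron, chr3R:6667363-6667512: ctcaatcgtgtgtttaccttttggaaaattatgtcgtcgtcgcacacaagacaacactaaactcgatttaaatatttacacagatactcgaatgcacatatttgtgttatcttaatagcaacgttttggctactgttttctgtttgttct

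GAGAG stood in 4 of these 6 windows, the Exd and Hox motif in the window at Ama, and none of the motifs in the window at lab. These 6 are the strongest summits, and no share over all optimal peaks was computed for 150 bp windows. In 200 bp windows GAGAG stood at 7 of all 21 summits (33.3%), beside 24.3% of the optimal list. Base composition ranged from 20% GC in the Abd-B window to 49.3% GC in the window between Ubx and abd-A.

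Antp, which specifies the second thoracic segment, held the strongest hng2 peak of either complex. Its summit lay at chr3R:6973590, in an intron of Antp and 15220 bp from the nearest Antp transcription start site (TSS). The peak had a signal of 2308, where signal is the enrichment value the authors' peak caller gave each peak, and ranked 58 among the 3170. In replicate 2 alone the summit had a signal of 1178 and rank 72, and in replicate 3 a signal of 1138 and rank 45. Both replicates placed it within 1 bp of the pooled position. Its signal was 5.71-fold that of the next summit of the complexes, and the peak was 575 bp wide where the other 20 were each 400 bp wide, the width of 86.0% of all optimal peaks.

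**Figure D1:**
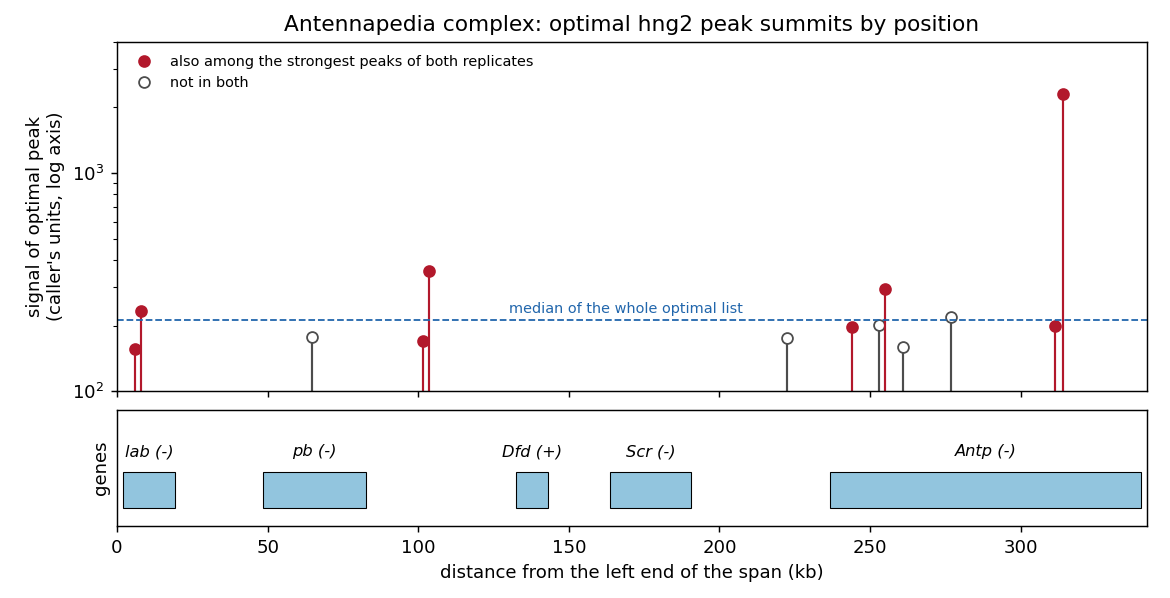
Optimal summits along the ANT-C, plotted as signal (authors' caller value, log axis) against distance in kb from the left end of the complex, with genes and their strands drawn underneath. Filled red points were among the strongest 3170 peaks of both replicates and open points were not; the dashed line is the median signal of the optimal list, 213, and the Antp summit of signal 2308 stands above all others.

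In all, Antp (FBgn0260642, chr3R:6896253-6999228, minus strand) held 7 optimal summits, each in an intron. Only 32 of 13968 protein-coding genes (0.229%) held as many, and 6 of the 86 genes at least as long as Antp (6.98%). The next in signal was the summit at 6914535, with a signal of 294 and rank 841 in replicate 2 and rank 1647 in replicate 3. The summit at 6936335, with signal 220, was the nearest to an Antp TSS, at 3495 bp; it ranked 1205 in replicate 2 and 4952 in replicate 3. The summits at 6912544, 6970758 and 6903501 had signals of 202, 199 and 196, and the last of these lay in an exon of lncRNA:CR43252, which is inside an Antp intron. The weakest, at 6920226, had a signal of 159. Of the 7, the 5 at 6936335 and to its left also lay in introns of the overlapping gene CG46458, so they cannot be assigned to Antp alone.

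Among the head genes, lab (FBgn0002522, chr3R:6661427-6678590), the most anterior Hox gene, held 2 optimal summits in its intron. The stronger, at 6667438, had a signal of 232 and had signal 104 and rank 2534 in replicate 2 and signal 130 and rank 552 in replicate 3. The weaker, at 6665498, had a signal of 156 and ranked 2714 and 2956, so both lab summits were among the strongest 3170 of each replicate. For pb (FBgn0051481, chr3R:6707800-6742063), which patterns the mouthparts, the only optimal summit was at 6724002 in an intron, 18061 bp from the TSS. Its signal was 178, and its rank was 1782 in replicate 2 and 5681 in replicate 3, outside that replicate's strongest 3170.

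Dfd and Scr, which pattern the gnathal segments and, for Scr, the first thoracic segment, held no optimal summit. In the relaxed list of the pooled replicates, which holds 30000 entries that the authors describe as peaks and background, the strongest summit at Dfd (FBgn0000439, chr3R:6791836-6802428) had a signal of 50.5 and rank 27439. At Scr (FBgn0003339, chr3R:6823120-6849981) it had a signal of 70.9 and rank 12476. The best rank at Dfd was 21808 in replicate 2 and 17452 in replicate 3, and at Scr 5992 and 5700. The nearest optimal summits lay 28713 bp from Dfd and 31885 bp from Scr. Both genes stood inside a stretch of 119 kb with no optimal summit, between 6763123 and 6881866. Stretches at least as long made up 8.31% of the 3177 between neighbouring optimal summits of the main arms and chromosome ends, and held 51.6% of main-arm bases.

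Ubx, which specifies the third thoracic and first abdominal segments, also held no optimal summit, although it is the second longest of the 8 genes (FBgn0003944, chr3R:16656623-16734426). Of the 146 genes at least as long as Ubx, 63 (43.2%) held none. Its strongest relaxed summit, at 16673372, had a signal of 134 and rank 3299, just outside the optimal list, whose lowest signal was 137. That summit lay 61054 bp from the Ubx TSS, in an intron. Replicate 2 held a summit 4 bp away at rank 3001. In replicate 3 the best summit at Ubx was at another site, at 16734451 and 25 bp from the TSS, and ranked 4455.

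At abd-A (FBgn0000014, chr3R:16807214-16830049), which patterns the middle abdomen, the strongest relaxed summit had a signal of 72.7 and rank 11701, and no summit was in the optimal list. The nearest optimal summit was 4767 bp beyond the gene. Abd-B (FBgn0000015, chr3R:16927212-16972236), which patterns the posterior abdomen and the genital segments, held 3 optimal summits, all in introns. The first pair stood 199 bp apart, at 16958188 with signal 305 and at 16958387 with signal 228. Replicate 3 resolved both, at ranks 1452 and 2082. Replicate 2 had a single summit between them, at 16958273 and rank 847. The third, at 16970090, had a signal of 147, the lowest of the 21, and ranked 2526 in replicate 2 and 3246 in replicate 3.

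**Figure D2:**
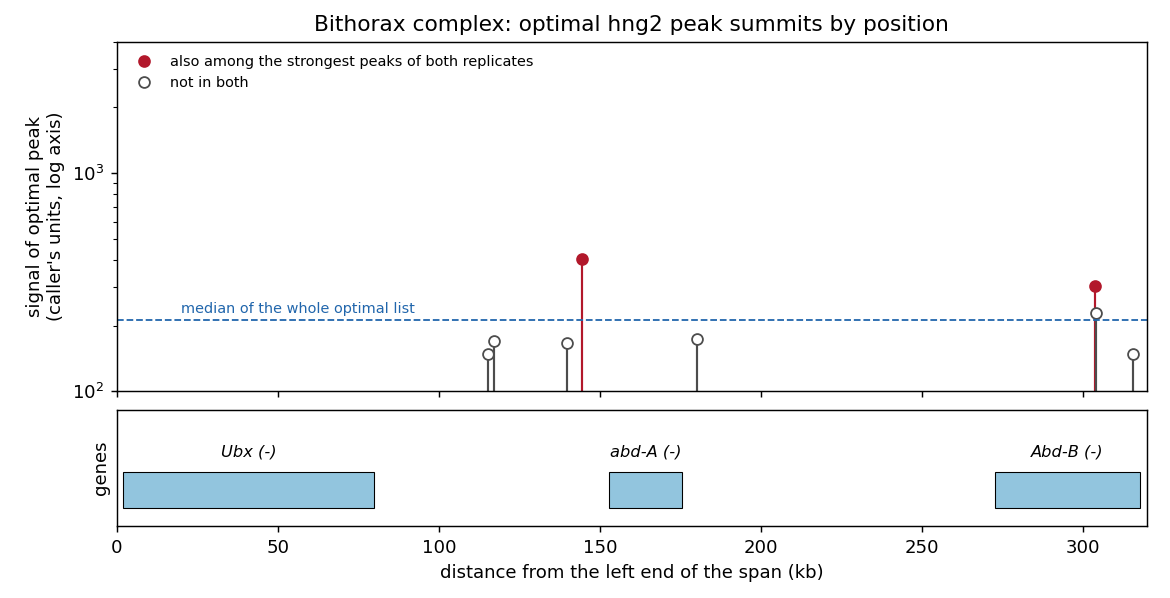
Optimal summits along the BX-C, with axes, points and dashed line as in the map of the ANT-C. The highest point, of signal 404, lies between Ubx and abd-A, and no summit lies over Ubx or abd-A.

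Counted by gene, 4 of the 8 Hox genes held an optimal summit in the gene or within 2 kb of it, beside 21.5% of all protein-coding genes and 46.9% of the 1873 genes at least as long as Dfd, the shortest of the 8. Among the strongest 3170 peaks of each replicate taken alone, 5 of 8 genes held a summit in replicate 2, where 22.2% of all genes did, and 3 of 8 in replicate 3, where 20.7% did. Ubx was the gene added in replicate 2, and pb the gene lost in replicate 3. The count of 4 of 8 stands close to the share among genes of at least that length.

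Since the relaxed lists include background, an entry there is not by itself enrichment. All 8 genes held at least 1 entry of the relaxed pooled list, as did 78.4% of all protein-coding genes and 96.0% of those at least as long as Dfd. The relaxed pooled list held 32 summits at Antp, 25 at Ubx, 14 at lab, 12 at Abd-B, 6 at pb, 5 at Scr, 4 at abd-A and 1 at Dfd. Replicate 2 alone held 32 at Antp, 23 at Ubx, 17 at Abd-B and 11 at lab. Replicate 3 alone held 26 at Antp, 15 at Ubx, 8 at Abd-B and 13 at lab. Antp and Ubx, the longest of the 8, had the most in each of these lists, and Dfd, the shortest, had 4 in replicate 2 and 1 in replicate 3. Ubx had 25 relaxed summits to the 32 of Antp, but 0 optimal ones to its 7. Per length, the optimal list held 9.45 summits per 100 kb at lab, 6.12 at Abd-B and 2.61 at pb, with Antp between lab and Abd-B. In the relaxed pooled list lab held 66.2 per 100 kb, Ubx 30.6, Antp 29.9 and Abd-B 24.5, beside 21.8 on the main arms. Scr with 16.2, pb with 15.7, abd-A with 14.9 and Dfd with 6.85 lay below that. With 1 to 7 optimal summits behind each value, the order of lab, Antp and Abd-B was not tested.

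No optimal summit lay closer than 500 bp to a Hox TSS: 0 of 8 genes had one, beside 10.3% of all protein-coding genes. Entries of the relaxed pooled list lay within that distance of 9 of the 19 Hox TSSs, beside 40.3% of all 23694 TSS positions, at signals from 50.7 to 112 and ranks from 4606 to 27272. The highest was at an Abd-B TSS at 16934242, with signal 112 and rank 4606. In replicate 3 alone it ranked 2356, within the strongest 3170, and in replicate 2 it ranked 12241. The pb TSS followed at signal 95.1 and the Ubx TSS at 87.6, while the TSSs of Dfd and abd-A had no relaxed pooled summit within 500 bp.

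**Figure D3:**
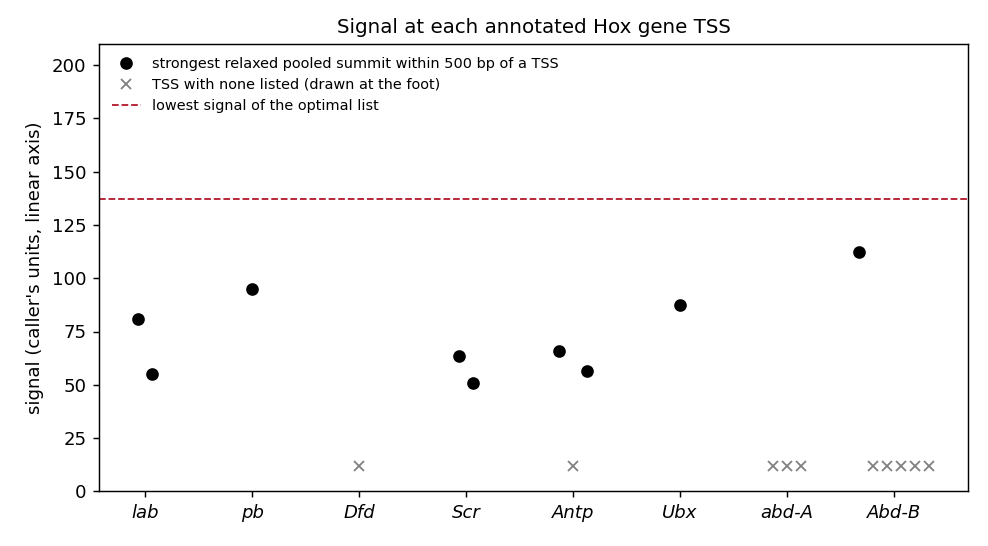
Signal of the strongest relaxed pooled summit within 500 bp of each of the 19 Hox TSSs, by gene, with a cross where there was none. The dashed line is the lowest signal in the optimal list, 137, and all points lie under it.

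Outside the Hox genes and their flanks stood 8 summits. Of these, 4 lay in introns of non-coding RNA genes, 1 in an intron shared by Ama and a non-coding RNA gene, and 3 in no annotated gene. Among the 4, 1 also lay in an intron of the protein-coding gene MSAmiP. The interval of 49.8 kb between pb and Dfd held 2. The stronger, at 6763123 with signal 356, was in an intron of Ama (Amalgam, an immunoglobulin-domain adhesion protein) and of lncRNA:CR45593, 281 bp from the Ama TSS. It ranked 563 in replicate 2 and 1537 in replicate 3, at the same base in both. It was the only 1 of the 21 within 500 bp of any TSS, 4.76%, beside 41.5% of all optimal summits. The median distance to a TSS was 3495 bp for the 21 and 884 bp for the whole list. The other, at 6761116, was intergenic, 1477 bp from the nearest Ama TSS and 1650 bp from the bcd TSS. It ranked 2700 in replicate 2 and 1927 in replicate 3.

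The interval between Ubx and abd-A, 72.8 kb long, held 4 summits, among them the second strongest of the complexes. At 16798862, in no annotated gene, it had a signal of 404, ranked 511 in replicate 2 and 1099 in replicate 3, and lay 29243 bp from the nearest abd-A TSS and 1738 bp from that of lncRNA:CR45750. A pair at 16769645 and 16771796 lay in an intron of lncRNA:bxd, the non-coding transcript of the bithoraxoid control region of Ubx, and had signals of 148 and 171. They ranked 2615 and 1909 in replicate 2, and 7441 and 6613 in replicate 3, outside its strongest 3170. The fourth, at 16794457, was intergenic, with signal 167. The interval between abd-A and Abd-B, 97.2 kb, held 1, in an intron of lncRNA:iab8 and of MSAmiP, which share that sequence. The interval between Scr and Antp held 1, in an intron of lncRNA:CR44931, and those between lab and pb and between Dfd and Scr held none.

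Of the 54 other annotated genes of the complexes, Ama and lncRNA:CR45593 were the 2 with a summit at a TSS (within 500 bp). That is 1 of 18 protein-coding genes, beside 10.3% of all, and 1 of 36 non-coding genes, beside 4.49%. Inside the gene, 3 of the 18 held a summit, beside 8.85% of all protein-coding genes, and 5 of the 36, beside 3.37% of all non-coding genes. Several of these 8 overlap each other or Antp and share summits. They include the long genes lncRNA:iab8 (92116 bp), MSAmiP (65179 bp), CG46458 (62118 bp) and lncRNA:bxd (31065 bp). The shares beside them were not matched for length. None of the 8 was zen, zen2, bcd or ftz, the homeobox genes of the ANT-C that do not act as Hox genes in the fly. That count covers summits inside the gene only. The optimal summit at 6761116 lay 1650 bp from the bcd TSS, so bcd had one by the rule of gene and 2 kb flanks.

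The replicates differed in how strongly they held these summits. Within 100 bp, 20 of the 21 were matched by a strongest-3170 summit of replicate 2 (95.2%, beside 84.4% of all optimal summits), 11 of 21 in replicate 3 (52.4%, beside 62.8%) and 10 of 21 in both (47.6%, beside 50.4%). The 10 were 8 of the 13 in the ANT-C and 2 of the 8 in the BX-C. Of the 20 ranked in both relaxed lists, 16 had the better rank in replicate 2. The median rank was 1948 over the 20 summits found in replicate 2, and 2956 over the 21 found in replicate 3. The worst rank was 2714 in replicate 2 and 8208 in replicate 3. By the shares above, the whole optimal list also leaned to replicate 2 (84.4% against 62.8%). Ranks were not compared over the whole list, so the lean is not shown to be particular to these summits.

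**Figure D4:**
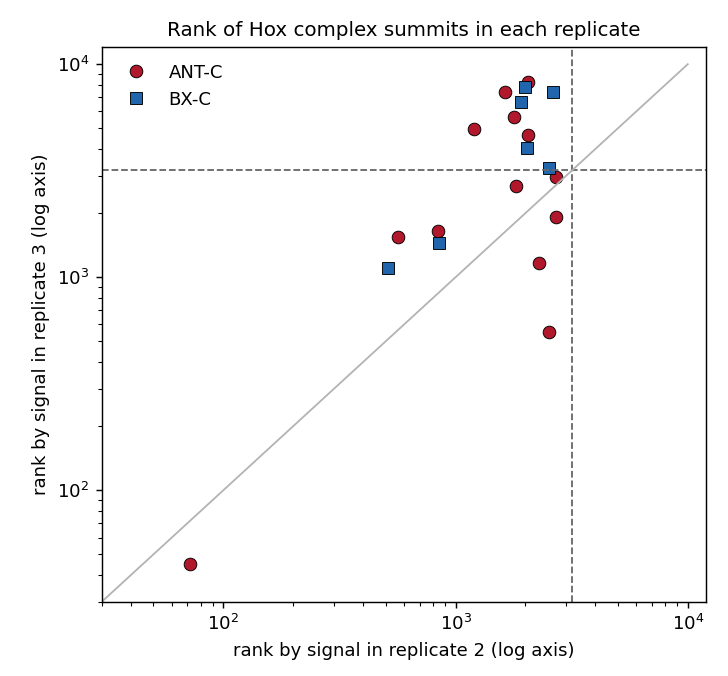
Rank of 20 optimal summits of the complexes in replicate 2 against their rank in replicate 3, by complex, with rank 1 the highest signal; dashed lines mark rank 3170 and the diagonal marks equal ranks. Most points lie on the side of a better rank in replicate 2, and 10 lie within the strongest 3170 of both.

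The ANT-C held 3.80 optimal summits per 100 kb and the BX-C 2.50, beside 2.30 on the main arms, or 1.65-fold and 1.09-fold. The main arms are 2L, 2R, 3L, 3R, 4, X and Y at full length, with no poorly mappable sequence left out. Against the full length of arm 3R alone, the folds were 1.62 and 1.07. In each replicate's own strongest 3170, the ANT-C held 14 and 12 summits, 13 ± 1.41 (SD, n = 2), and the BX-C 9 and 4, 6.5 ± 3.54 (SD, n = 2). The fold for the ANT-C was 1.78 in replicate 2 and 1.52 in replicate 3, both above 1. That for the BX-C was 1.22 and 0.543, on either side of 1. In tiles of 10 kb, 14 of 65 tiles of the complexes held an optimal summit (21.5%), beside 16.7% of all tiles. In the relaxed pooled list the complexes were closer to each other, with 92 summits in the ANT-C (1.23-fold) and 81 in the BX-C (1.16-fold).

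**Figure D5:**
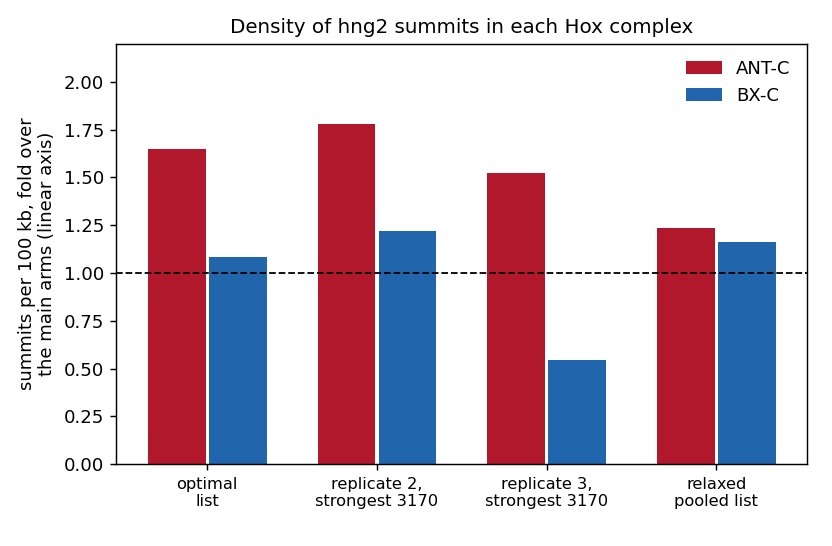
Density of summits in the ANT-C and the BX-C, as fold over the main arms (linear axis from 0, dashed line at 1), in the optimal list, the strongest 3170 of each replicate and the relaxed pooled list. The ANT-C lies above 1 in each of these 4 lists, and the BX-C lies below 1 in replicate 3.

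Over windows of 200 bp at the 21 summits, GAGAG was found in 7 (33.3%, 95% exact Clopper-Pearson interval 14.6 to 57.0), beside 24.3% of all optimal windows and 21.5% of 200 bp tiles of the main arms. GCCAT was found in 6 (28.6%), beside 26.8% and 35.1%. TGATNNAT was found in 2, at Ama and lncRNA:bxd, beside 14.4% and 12.9%. AGNNGGCGC was found in 1, in the intron of lncRNA:iab8, beside 2.30% and 1.74%, and CAGCTG in 1, beside 7.95% and 8.30%. TATCGATA was in none, with an interval reaching 16.1%, beside 1.45% and 0.562%. Each interval holds the share of the whole list, and they cover counting error only. A match is a run of letters and no evidence of a bound factor.

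Genes that act with or on the Hox genes were counted from 5 lists of 34 genes. By the TSS rule 10 of the 34 had a summit, beside the 10.3% of all genes. By the rule of gene and 2 kb flanks 17 did, beside 21.5% of all genes and 46.9% of those at least as long as Dfd. The lists hold genes both longer and shorter than Dfd, and no share matched to their lengths was computed. These lists were chosen with earlier results known. Of 6 Hox cofactors, hth (a partner of Exd) and tsh (a trunk zinc finger factor) had one at a TSS. Of 11 Polycomb group genes, ph-p, ph-d and E(z) had one at a TSS, and 5 had one in the gene or within 2 kb. The strongest summit in the region of ph-p had a signal of 1662, that of Pc 933, that of ph-d 688, that of E(z) 514 and that of Psc 423. The genes ph-p and ph-d are neighbouring near-copies. All 4 Trithorax group genes had a summit in the gene or within 2 kb, and Trl (GAGA factor) and brm (a chromatin remodeller) had one at a TSS. The strongest summit in the region of ash1 had a signal of 1841, that of Trl 1301, that of brm 656 and that of trx 528. Those of ash1 and Pc lay outside the gene, in the 2 kb flank, 8156 bp and 13444 bp from the gene's nearest TSS. Of 7 Hox targets, Dll, fkh and rho had one at a TSS, and of 6 gap and posterior genes none did.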

How the data were processed

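Peaks of hng2 in replicates 2 and 3 were taken from 4 of the 8 lists the authors deposited, those on dm6: 1 per replicate, 1 of the pooled replicates (each relaxed, with 30000 peaks and background entries) and the optimal list thresholded by the irreproducible discovery rate, per the file lists that accompany the samples. The dm3 lists were not used here. The first value is the signal of the authors' caller per peak against a control library, which was not analysed here; it is not scaled between lists, so ranks were compared. The authors deposited a -log10 q-value per peak, not used for ranking. As for caller, aligner, versions and threshold, each is not given in the sources used here. Without read counts in the lists, depth is unknown. Per the labels' protocols, sonicated fragments were 200 to 800 bp.

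Summits were joined to the Ensembl annotation, release 115, of genome Release 6 with Python 3.11.15, pandas 2.3.3, numpy 2.4.6 and scipy 1.17.1. The main arms hold 137547960 bases, with 13968 protein-coding genes and 23694 TSS positions (transposable elements left out). N was 3170, the length of the optimal list; summits within 100 bp were counted as shared. No significance test was run, since there is 1 group and peaks are not replicates. Counting was tested on simulated data. All 8 genes were named, with the 12 summits of highest signal; 9 others are given by number, or by name where they are the only summit of a gene or interval, chosen after their values were seen. The genes, lists and motifs were chosen with earlier results of these data known. The stretch between the complexes was left out.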

Additional observations from a re-analysis of the deposited data

How the results depend on the processing

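Of 28 alternative counts, 23 stayed within 1.5-fold and 5 did not. Of 4 alternative densities, 2 moved by less than the SD between replicates, 0.325. That SD comes from the 2 single-replicate densities, which are themselves 2 of the 4 alternatives, so it is not an independent measure of their stability. Of 12 motif shares in windows of other lengths, 7 stayed inside the 95% interval of the share in 200 bp windows. With 21 windows those intervals are wide, and CAGCTG going from 4.76% to 14.3% stayed inside. Keeping only the stronger 1585 peaks of the optimal list left 6 summits in or near the Hox genes instead of 13, 8 in the complexes instead of 21, 6 found in both replicates instead of 10, and a density 1.05-fold that of the main arms instead of 1.38-fold. With the full relaxed lists of the replicates, 20 of 21 summits were found in both. With 1 replicate left out, the density of both complexes ranged from 1.05-fold to 1.51-fold, and the number of Hox genes with a summit within 500 bp of a TSS from 0 to 1, that 1 being Abd-B in replicate 3. The BX-C count was 9 in replicate 2 and 4 in replicate 3. No paired analysis was possible because there is 1 group. The peak lists hold no counts, so a weak summit missing from a list was not detected at the authors' threshold, and is not shown to be absent.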

Other observations

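Among the strongest 3170 of 1 replicate, 8 summits of the complexes had no optimal summit within 100 bp. In replicate 3, a summit in the 5' UTR of Ama at 6762910 ranked 1003 and one in an Antp intron at 6912382 ranked 1082, and neither had a relaxed pooled summit within 100 bp. The first lay 213 bp from the optimal summit in the Ama intron, and the second 162 bp from the optimal summit at 6912544 and inside its peak. In replicate 2, the one at 16869309 in an intron of lncRNA:iab8 ranked 2774 and had pooled rank 4341. Ubx lay in a stretch of 232 kb without an optimal summit, which runs beyond the complex. Of all stretches, 1.98% were at least as long, and these held 28.3% of main-arm bases. The stretch was not empty in the other lists. It held 3 of the strongest 3170 summits of replicate 2 and 7 of those of replicate 3. The relaxed pooled list had 95 summits there, the strongest at rank 3208.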
